A study of Mus musculus with 6 samples.

Results

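The proteasome genes described here were the protein-coding genes of the deposited table whose symbol begins with PSMA to PSMG followed by a digit, together with POMP. The rule found 50 genes among 58735 in the table and did not use any measured value. They were compared between parental 22Rv1 cells, a human prostate cancer line kept in vehicle, and 22Rv1 BL-B01D1_R, a subline raised from the same line under stepwise higher doses of BL-B01D1. BL-B01D1 is a bispecific antibody–drug conjugate that binds EGFR and HER3 and carries a camptothecin-type topoisomerase I inhibitor. Each group had 3 libraries of poly-A RNA, with 13821639 to 17251491 counts on genes per library. No gene was engineered in either group, whether the resistant cells were in drug at harvest is not stated, and the methods describe a single resistant line. The libraries therefore sample 1 selection, and nothing in the sources says that they came from separate cultures, so p-values measure the spread between these samples only.

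The proteasome degrades proteins tagged with ubiquitin. Its 20S core is a barrel of alpha and beta rings with the proteolytic sites on the inner beta rings, and the 19S cap binds, unfolds and feeds the substrate. PSMA and PSMB genes encode the core, PSMC genes the ATPases of the cap, and PSMD genes its other subunits, whereas PSME genes encode alternative caps and PSMG genes and POMP help to build the core. Interferon can exchange the catalytic beta subunits for PSMB8, PSMB9 and PSMB10, which gives the immunoproteasome. When proteasome activity falls, the transcription factor NRF1 (gene NFE2L1) is known to raise the subunit genes together.

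The 9 luminal prostate markers checked, the kallikreins KLK2 and KLK3 among them, summed to 3380 to 3480 CPM (counts scaled to library size with TMM factors) in parental libraries and 3578 to 3664 CPM in resistant libraries. All 3 immune and both endothelial markers had at most 3 counts in every library. The fibroblast list summed to 110.6 to 114.4 CPM in parental libraries and 39.0 to 43.4 CPM in resistant ones, most of it from LUM, a proteoglycan gene at 93.55 to 99.3 CPM in parental and at most 30.3 CPM in resistant libraries. The 4 neuroendocrine markers summed to 135.4 to 149.3 CPM and 109.9 to 117.6 CPM, with INSM1 at no more than 3 counts. CHGA, a granule protein gene of that list, was at 37.7 to 40.9 CPM in parental and 7.89 to 8.75 CPM in resistant libraries, whereas SYP, a synaptic vesicle gene that makes up most of the sum, was at 94.5 to 109.5 CPM and 101.9 to 108.8 CPM, with overlap. The part of these differences in the results below was not tested.

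The proteasome genes as a whole differed little between the lines. Of the 50 genes, 48 had enough counts to be tested, and at an FDR of less than 0.05 in edgeR's quasi-likelihood test 10 were higher and 5 were lower in resistant cells. These are 20.8% and 10.4% of the tested members, against 17.1% higher and 18.4% lower among all 17142 genes tested. No member passed the study's added threshold of an absolute log2 fold change greater than 1, which 2.53% of all genes passed upward and 2.84% downward, and DESeq2 and limma-voom also gave 0 such members. At an unadjusted p under 0.05 in edgeR, 12 members were higher and 5 lower. The share of all genes at that threshold was not taken, so these counts stand without a background. The median log2 fold change of the members was 0.028, whereas that of all genes tested was 0.0038. Without regard to sign, the members' median was 0.070 and that of all genes 0.17.

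Much of the table is expressed at lower levels than these genes, so the same counts were also taken among genes at 20 CPM or more, a level chosen after the data were seen. There, 42 members were tested, of which 9 (21.4%) were higher and 4 (9.52%) lower, beside 21.6% higher and 23.5% lower among all 8503 such genes. The median size of the log2 fold change of those 8503 genes was 0.11. Of the 48 tested members, 32 had a log2 fold change under 0.1 in size. The 95% interval of the log2 fold change lay inside −0.25 to 0.25 for 36 members and inside −1 to 1 for 46. The intervals of PSMB9 and PSMB10 alone reached beyond −1 or 1.

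**Figure D1:**
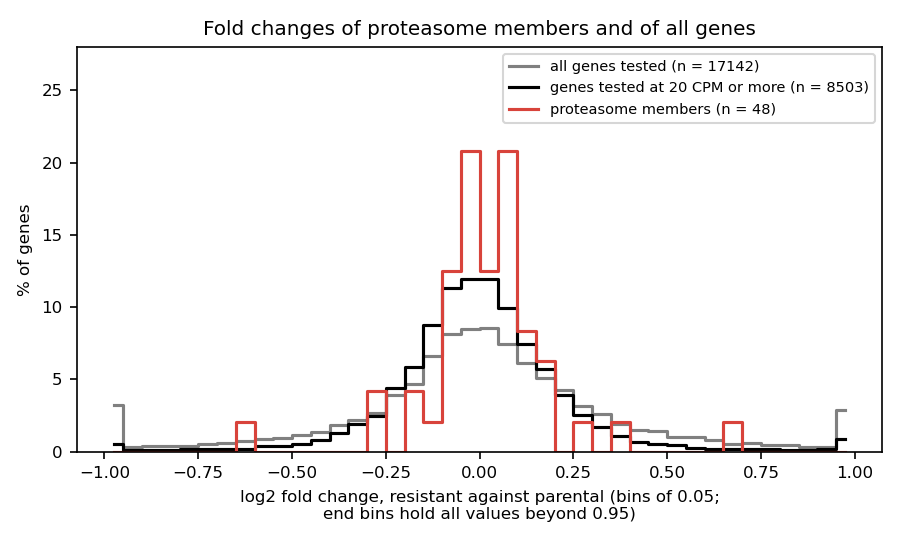
Distribution of log2 fold changes (resistant against parental, x axis, bins of 0.05) as percent of genes (y axis) for 48 proteasome members in red, all 17142 genes tested in gray and the 8503 genes at 20 CPM or more in black. The members crowd around 0 and none reaches the end bins.

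Counts on the 50 genes made up 0.508%, 0.515% and 0.510% of all counts in the parental group and 0.517%, 0.515% and 0.521% in the resistant group (libraries 1, 2 and 3). For the 32 constitutive subunits of the core and the cap (PSMA, PSMB1 to PSMB7, PSMC, and PSMD without the chaperones; PSMA8 had no counts), summed FPKM, a level scaled to gene length, was 1310 ± 8.85 (SD, n = 3) in parental and 1343 ± 8.62 (SD, n = 3) in resistant libraries, a difference of 2.51%. The parental sums ran from 1303 to 1320 and the resistant sums from 1334 to 1351, without overlap. This separation is on TMM-scaled library sizes. The TMM factors were 1.001 to 1.009 in parental and 0.9931 to 0.9956 in resistant libraries, which lowers the parental and raises the resistant sums. Whether the sums stay apart without these factors was not tested. The largest rises in mean FPKM were those of PSMB4 (145.6 to 159.2) and PSMB5 (83.1 to 93.0). Of the 31 tested subunits, 13 had a log2 fold change below 0, and no background was taken for such sums. In bulk RNA, a change in all cells and a change in some of the cells cannot be told apart.

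**Figure D2:**
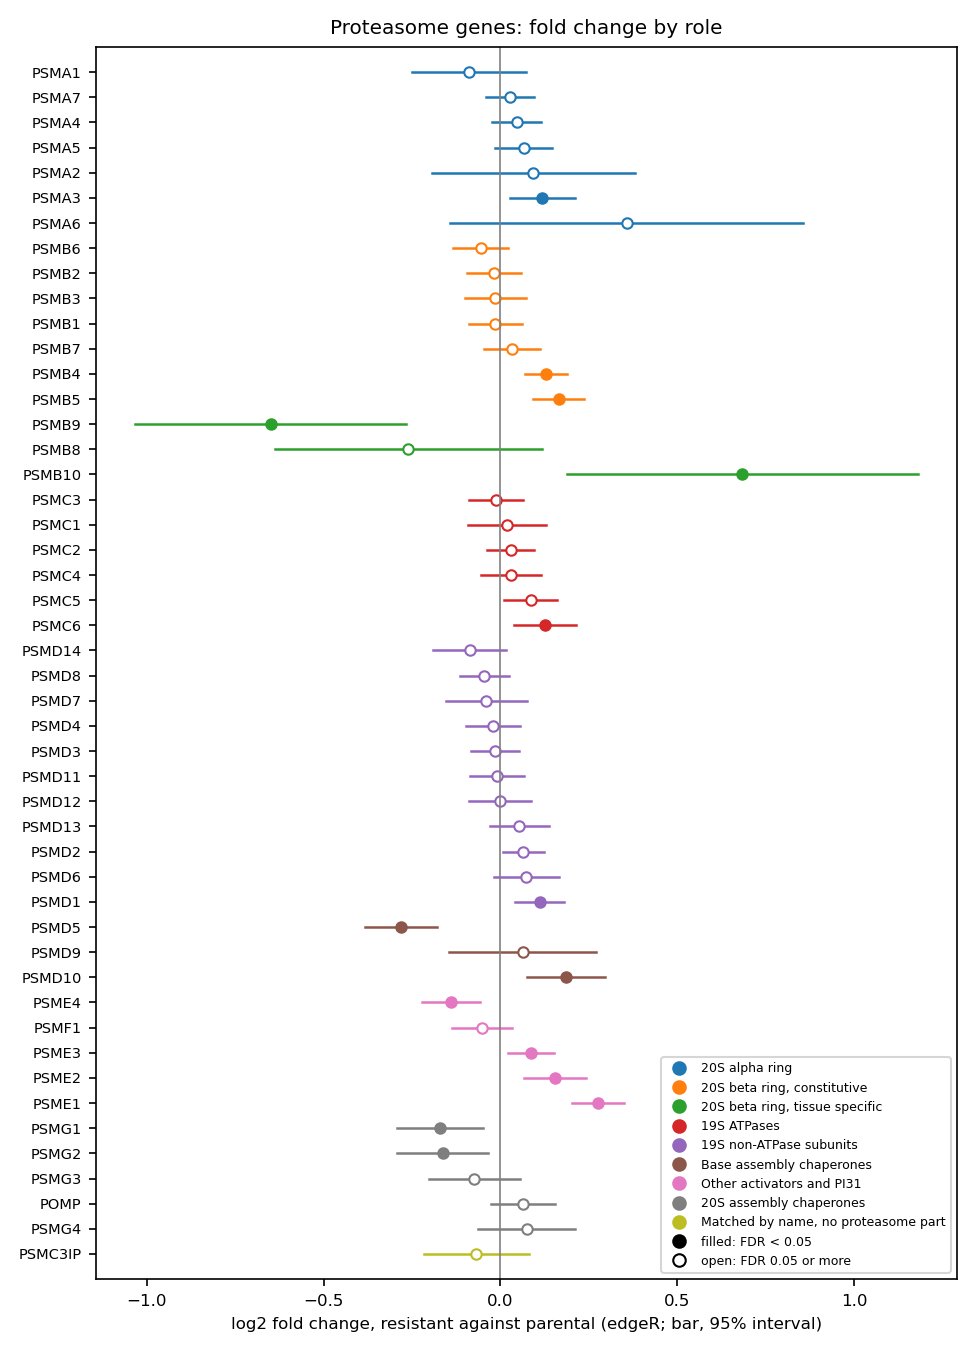
Log2 fold change of each of the 48 tested members (x axis, resistant against parental) with its 95% interval, grouped by role. Filled points passed an FDR of 0.05, 10 to the right of 0 and 5 to the left, and the widest intervals belong to PSMA2, PSMA6 and the immunoproteasome subunits PSMB8, PSMB9 and PSMB10.

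Of the alpha ring, which gates the core, 7 of 8 genes were tested, 1 (14.3%) was higher and none was lower. The shares of all genes tested were 17.1% and 18.4%. PSMA3 was at 86.9, 83.5 and 78.4 CPM in parental libraries 1, 2 and 3, whereas resistant libraries 1, 2 and 3 were at 91.2, 92.3 and 87.0 CPM. The resistant values lay above the parental ones, the lowest of them only just. The change amounted to 0.12 on the log2 scale (SE 0.046, FDR 0.0399 in edgeR), and 7 of 14 alternative fits kept the FDR under 0.05. It was lost without parental library 2 (FDR 0.0788), parental library 3 (0.211), resistant library 1 (0.111) or resistant library 2 (0.143). It was also lost with DESeq2 (FDR 0.0961), library size alone (0.077) and no filter (0.0562). PSMA1 and PSMA6 had the lowest and the highest log2 fold change of the ring, −0.089 (95% interval −0.25 to 0.072) and 0.36 (95% interval −0.14 to 0.86), and neither passed. PSMA6 had 67, 31 and 29 counts in parental and 60, 36 and 65 in resistant libraries, so the groups overlapped and parental library 1 stood with the resistant ones. Leaving out 1 library moved the log2 fold change of PSMA6 between 0.15 (FDR 0.723 in edgeR, without parental library 2) and 0.78 (FDR 0.0206, without parental library 1), and the latter was the only 1 of 14 alternative fits in which it passed. PSMA8, the testis form of an alpha subunit, had a count of 0 in all 6 libraries, against a floor of 3 counts that corresponds to 0.174 to 0.216 CPM per library and covers counting error only.

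The constitutive beta ring carries the proteolytic sites. Of its 7 genes, 2 (28.6%) were higher in resistant cells and none was lower, beside 17.1% and 18.4% of all genes tested. PSMB5 (ENSG00000100804, reverse strand of chromosome 14 of hg38, 23016543 to 23035230), the chymotrypsin-like subunit and the main target of bortezomib, was at 144.6, 145.6 and 149.7 CPM in parental libraries and 165.7, 157.8 and 169.2 CPM in resistant libraries. Every resistant value exceeded every parental value, as was the case for 14 of the 48 members, while 8 lay wholly below. Among all genes tested the resistant libraries lay wholly above in 22.1% and wholly below in 22.8%. The log2 fold change of PSMB5 was 0.16 (SE 0.036, FDR 2.98e-04 in edgeR), an increase of 12.1%.

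PSMB4 (ENSG00000159377, forward strand of chromosome 1, 151399534 to 151401944), a beta subunit without a catalytic site of its own, rose from 314 ± 2.48 CPM (SD, n = 3) in parental to 343 ± 11.2 CPM (SD, n = 3) in resistant libraries, with a log2 fold change of 0.13 (SE 0.030, FDR 5.49e-04 in edgeR). The other catalytic subunits did not pass the test. PSMB6, the caspase-like subunit, had a log2 fold change of −0.056 (95% interval −0.13 to 0.021), with 121.9, 126.4 and 124.8 CPM in parental and 121.3, 117.3 and 120.2 CPM in resistant libraries. PSMB7, the trypsin-like subunit, had a log2 fold change of 0.033 (95% interval −0.046 to 0.11). The intervals of PSMB6 and PSMB7 exclude a change of the size estimated for PSMB5, although the difference between the subunits was not itself tested.

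The subunits that replace the catalytic ones in the immunoproteasome had low FPKM. In edgeR 1 of 3 tested (33.3%) was higher and another (33.3%) lower in resistant cells, beside 17.1% and 18.4% of all genes tested. PSMB10 shares 1516 bases with a gene model on its own strand, so its level is uncertain. The core subunit PSMA6, with such an overlap too, had a lower parental mean (0.401 FPKM) than PSMB10 (1.095 FPKM). Levels per gene length stayed under 3% of the constitutive partner except for PSMB10 in resistant library 3. FPKM of PSMB8 was 1.75%, 1.95% and 1.59% of that of PSMB5 in parental and 1.09%, 1.497% and 1.37% in resistant libraries. FPKM of PSMB9 was 1.62%, 1.87% and 1.90% of that of PSMB6 in parental and 1.13%, 1.23% and 1.21% in resistant libraries. For PSMB10 over PSMB7 the values were 1.33%, 2.01% and 1.73% in parental and 2.13%, 2.44% and 3.42% in resistant libraries. The groups did not overlap for any of these ratios, with lower resistant values for PSMB8 and PSMB9 and higher ones for PSMB10, and no test was made of the ratios. By CPM, resistant libraries lay wholly above in 22.1% and wholly below in 22.8% of all genes tested, so separation alone says little. PSMB8 itself did not pass (FDR 0.298 in edgeR).

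PSMB9 (ENSG00000240065, forward strand of chromosome 6, 32844136 to 32859585) had 72, 84 and 70 counts in parental and 48, 45 and 50 in resistant libraries, and no library of one group reached the other. It was lower in resistant cells, with a log2 fold change of −0.65 (SE 0.19, FDR 0.00598 in edgeR, 95% interval −1.03 to −0.27), and it passed in all 14 alternative fits. PSMB10 (ENSG00000205220, reverse strand of chromosome 16, 67934502 to 67937087) had 27, 42 and 28 counts in parental and 43, 44 and 68 in resistant libraries, close together apart from resistant library 3. Its log2 fold change was 0.68 (SE 0.25, FDR 0.0261 in edgeR), and it did not pass with DESeq2 (FDR 0.079) nor without parental library 1 (0.134), parental library 3 (0.0567) or resistant library 3 (0.225). PSMB8, which overlaps PSMB9 on the other strand, had a log2 fold change of −0.26 (95% interval −0.64 to 0.12) and did not pass.

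PSMB9 overlaps TAP1 on the opposite strand by 8770 bases, and TAP1 had a mean of 777 counts in parental and 715 in resistant libraries. PSMB8 and PSMB9, also on opposite strands, overlap each other by 568 bases. PSMB10 overlaps a protein-coding gene model on its own strand, AC040162.1, by 1516 bases. Whether the counts used strand is not stated, so reads in these stretches cannot be assigned with certainty. PSMB11, the thymus form, had 1 count in 1 resistant library and none elsewhere, and was not tested.

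**Figure D3:**
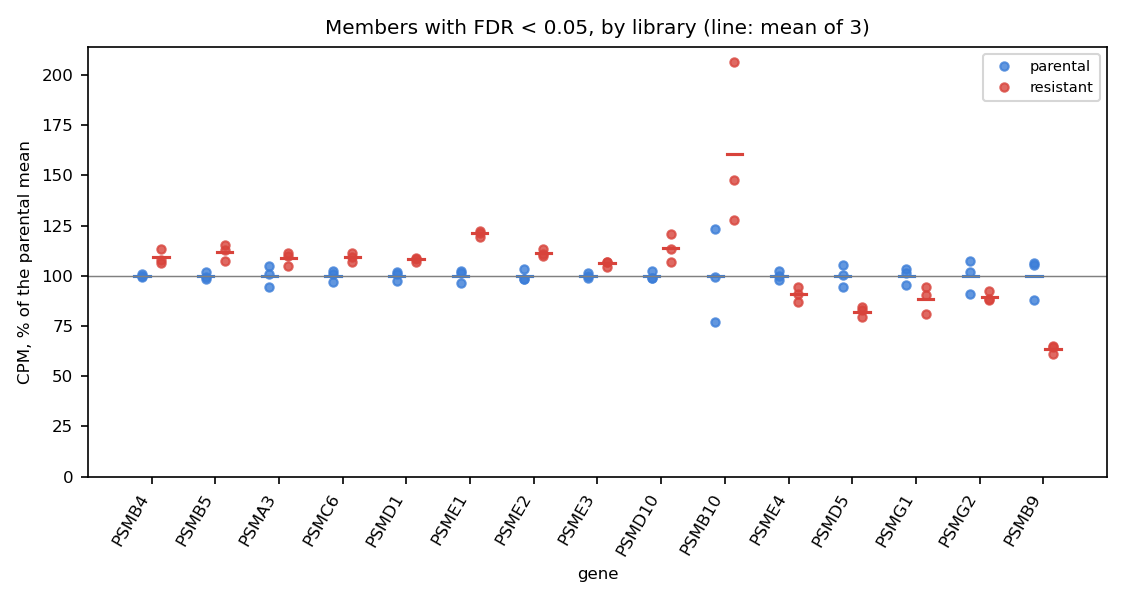
CPM of the 15 members that passed an FDR of 0.05, as percent of the parental mean (y axis), for each of the 3 parental (blue) and 3 resistant (red) libraries, with a line at each group mean. PSMB10 and PSMB9 lie farthest from 100%, and PSMB10 also has the widest spread.

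The ATPases of the cap unfold the substrate. Of the 6 genes, 1 (16.7%) was higher and none was lower, beside 17.1% and 18.4% of all genes tested. PSMC6 was at 82.4, 87.1 and 85.8 CPM in parental and 94.6, 91.0 and 93.1 CPM in resistant libraries. All resistant values were the larger ones, with a log2 fold change of 0.13 (SE 0.043, FDR 0.0188 in edgeR), and 11 of 14 alternative fits kept it under an FDR of 0.05. The exceptions were DESeq2 (FDR 0.0523) and the fits without parental library 1 (0.0908) or resistant library 1 (0.0778). The other 5 ATPase genes had log2 fold changes between −0.013 for PSMC3 and 0.086 for PSMC5, whose FDR was 0.0661.

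Among the 11 other subunits of the cap, which include ubiquitin receptors, the scaffold and the deubiquitinase, 1 (9.09%) was higher and none was lower. The shares of all genes tested were 17.1% and 18.4%. PSMD1, a scaffold subunit of the base, was at 167.4, 165.7 and 160.2 CPM in parental and 175.7, 178.4 and 179.3 CPM in resistant libraries. The log2 fold change was 0.11 (SE 0.034, FDR 0.00885 in edgeR) with no overlap of the groups. PSMD14, the deubiquitinase that removes ubiquitin chains at the entry to the core, had the lowest log2 fold change of the group, −0.087 (95% interval −0.19 to 0.015), and did not pass. The ubiquitin receptors PSMD2 and PSMD4 had log2 fold changes of 0.064 and −0.021, with FDR of 0.0773 and 0.724.

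Taking the constitutive core and cap together, 5 of the 31 tested subunit genes were higher (PSMA3, PSMB4, PSMB5, PSMC6 and PSMD1), 0 were lower and 26 did not pass. The higher genes are 16.1% of those tested, close to the 17.1% among all genes, while 18.4% of all genes were lower. At an unadjusted p under 0.05 in edgeR these counts were 7 and 0, and at an FDR under 0.05 they were 3 and 0 in DESeq2 and 5 and 0 in limma-voom. Shares of all genes were not taken for these settings. With signs alone, 18 of the 31 log2 fold changes were above 0 and 13 below, with a median of 0.029. The changes that passed were between 0.11 and 0.16 on the log2 scale.

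The alternative caps were grouped with the inhibitor PSMF1. Of these 5 genes, 3 (60%) were higher and 1 (20%) was lower in resistant cells, beside 17.1% and 18.4% of all genes tested. PSME1 and PSME2 encode the subunits of PA28 alpha/beta, an ATP-independent cap that is induced by interferon and favors peptide production for antigen presentation. PSME1 (ENSG00000092010, forward strand of chromosome 14, 24136158 to 24138967) was at 134, 132.9 and 126.3 CPM in parental and 160.3, 156.6 and 159.1 CPM in resistant libraries. The groups were far apart relative to their spread, and the log2 fold change of 0.27 (SE 0.036, FDR 5.10e-08 in edgeR, 95% interval 0.20 to 0.35) had the smallest FDR among the members.

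PSME2 (ENSG00000100911, reverse strand of chromosome 14, 24143362 to 24147570), which lies within 5 kb of PSME1, was at 83.1, 87.5 and 83.0 CPM in parental and 92.8, 95.7 and 93.9 CPM in resistant libraries. Its log2 fold change was 0.15 (SE 0.043, FDR 0.00435 in edgeR). PSME1 and PSME2 passed in all 14 alternative fits. PSME3, the nuclear PA28 gamma, had a log2 fold change of 0.086 (SE 0.032, FDR 0.0339 in edgeR) and passed in 7 of 14 alternative fits, with an FDR of 0.0834 to 0.0989 when parental library 2 or 3 or resistant library 1 or 2 was left out. PSME3 was also lost with DESeq2 (FDR 0.0594), library size alone (0.0845) and no filter (0.0633). BECN1, which overlaps PSME3 on the opposite strand by 8966 bases, had a mean of 647 counts in parental and 855 in resistant libraries, and its part in the PSME3 counts was not tested. PSME4, the large nuclear cap PA200, was lower, with 113.9, 111.4 and 109.2 CPM in parental and 101.3, 96.9 and 105.4 CPM in resistant libraries. Its log2 fold change was −0.14 (SE 0.041, FDR 0.00649 in edgeR), and without resistant library 2 it no longer passed (FDR 0.0701). PSMF1, the inhibitor PI31, had a log2 fold change of −0.053 and did not pass.

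The chaperones that assemble the proteasome did not move together. PSMD5, PSMD9 and PSMD10 bind ATPase subunits while the base of the cap is built. PSMD5 (ENSG00000095261, reverse strand of chromosome 9, 120815496 to 120842984) was lower, at 76.2, 71.8 and 80.0 CPM in parental and 60.3, 64.0 and 62.9 CPM in resistant libraries, clearly apart. Its log2 fold change was −0.28 (SE 0.050, FDR 1.46e-05 in edgeR), and it passed in all 14 alternative fits. The pseudogene CUTALP overlaps PSMD5 on the opposite strand by 18157 bases. CUTALP had a mean of 413 counts in parental and 368 in resistant libraries, and its part in the PSMD5 counts was not tested. PSMD10, also known as gankyrin, was higher, at 53.5, 53.6 and 55.5 CPM in parental and 58.0, 61.5 and 65.4 CPM in resistant libraries, with a log2 fold change of 0.19 (SE 0.054, FDR 0.00628 in edgeR). Without resistant library 3 PSMD10 no longer passed (FDR 0.0731). PSMD9 had a log2 fold change of 0.063 (95% interval −0.15 to 0.27).

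Among the assembly factors of the core, 2 of 5 (40%) were lower and none was higher, beside 18.4% and 17.1% of all genes tested. PSMG1 and PSMG2 encode the partners of 1 chaperone dimer for the alpha ring. PSMG1 was at 52.9, 49.7 and 54.0 CPM in parental and 47.1, 42.2 and 49.4 CPM in resistant libraries, nearly touching, with a log2 fold change of −0.17 (SE 0.060, FDR 0.0235 in edgeR). PSMG2 was at 45.9, 48.4 and 40.9 CPM in parental and 39.8, 39.6 and 41.6 CPM in resistant libraries, with overlap, and a log2 fold change of −0.16 (SE 0.064, FDR 0.0417 in edgeR). Both calls were weak, since PSMG1 passed in 10 and PSMG2 in 7 of 14 alternative fits. PSMG1 was lost without parental library 1 (FDR 0.0533), parental library 3 (0.0922) or resistant library 2 (0.211), and PSMG2 without parental library 1 (0.0924), parental library 2 (0.256), resistant library 1 (0.122) or resistant library 2 (0.128). DESeq2 lost both, with an FDR of 0.0664 for PSMG1 and 0.11 for PSMG2. PSMG2 was also lost with no filter (FDR 0.0626) and with the replicate number as a block (0.057). PSMG3 and PSMG4, partners in the other dimer, had log2 fold changes of −0.074 and 0.074 and did not pass. POMP, the factor that starts beta ring assembly, was at 78.4, 78.9 and 78.0 CPM in parental and 83.0, 81.5 and 81.4 CPM in resistant libraries. Its libraries did not overlap, but its log2 fold change of 0.063 (SE 0.044, FDR 0.285 in edgeR) did not pass.

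Levels per gene length differed widely among subunits that the assembled particle holds in equal number. Mean FPKM in parental cells ran from 146 for PSMB4 and 103 for PSMA7 down to 1.36 for PSMA2 and 0.401 for PSMA6. The order was PSMB4, PSMA7, PSMB3, PSMB6 and PSMB5 at the top, of which PSMB3, PSMB6 and PSMB5, at 88.7 ± 4.10, 85.9 ± 1.57 and 83.1 ± 1.54 FPKM (SD, n = 3), lay within or close to their spread. In resistant cells PSMB5 stood at 93.0 ± 3.30 FPKM (SD, n = 3), above PSMB3 at 87.9 and PSMB6 at 82.6.

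Several of the low values belonged to genes with overlapping models, although PSMB8 and PSMB9 were also low. PSMA1, PSMA2, PSMA6, PSMB10 and PSMD9 were the 5 tested members that overlap another protein-coding model on the same strand, and their parental means ran from 0.401 to 8.02 FPKM with a median of 1.36. The other 43 tested members had a median of 25.4 FPKM. Among the constitutive core and cap subunits, the 3 with such an overlap were at 0.401 to 8.02 FPKM and the other 28 at 8.41 to 146 FPKM. PSMA6 shares 38842 bases with AL121594.1 and PSMA2 shares 15318 bases with AC010132.3, and these models had means of 5.67 and 2.00 counts in parental libraries. How reads on more than 1 gene model were counted is not stated in the sources used here, and the part of the overlap in these levels was not tested.

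**Figure D4:**
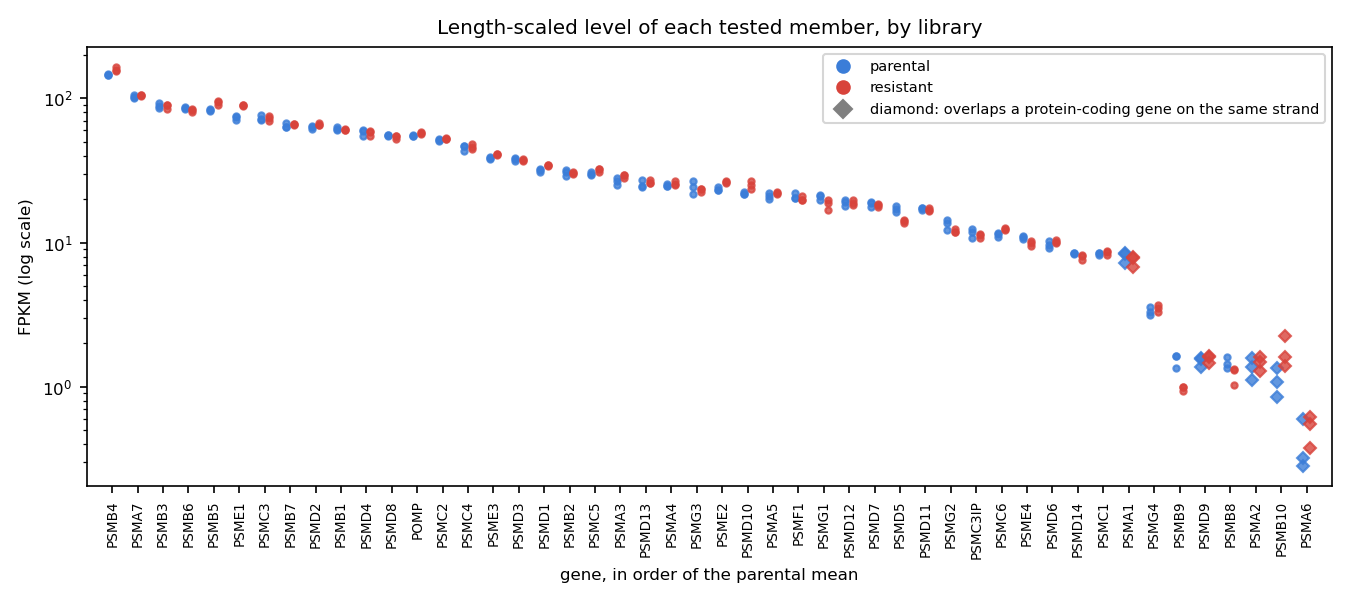
FPKM (y axis, log scale) of the 48 tested members in each parental (blue) and resistant (red) library, ordered by the parental mean. Diamonds mark the 5 members that overlap a protein-coding gene on the same strand, all of which lie at or below 8.02 FPKM in the parental mean.

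PSMC3IP met the naming rule without being part of the proteasome, since it encodes a cofactor of meiotic recombination. It had a log2 fold change of −0.068 (95% interval −0.22 to 0.080) and did not pass, so leaving it out changes no count of higher or lower members.

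The naming rule misses some proteasome components and partners. Of 13 such genes, 2 (15.4%) were higher, 1 (7.69%) was lower and 10 did not pass, beside 17.1% and 18.4% of all genes tested. SEM1, the smallest cap subunit, was at 67.1, 73.1 and 69.2 CPM in parental and 80.5, 86.0 and 79.4 CPM in resistant libraries, with a log2 fold change of 0.23 (FDR 1.70e-04 in edgeR). ECPAS, an adaptor that binds core and cap, was at 211.1, 216.3 and 211.4 CPM in parental and 179.1, 180.3 and 178.5 CPM in resistant libraries, with a log2 fold change of −0.25 (FDR 4.01e-08 in edgeR). The third, ZFAND2A, a stress-induced partner of the cap, had a log2 fold change of 0.23 (FDR 0.0387 in edgeR), and leaving out parental library 1 or 3 or resistant library 2 or 3 raised its FDR to between 0.0709 and 0.126. ZFAND2A was also lost with DESeq2 (FDR 0.109), library size alone (0.0555) and no filter (0.0789), and passed in 7 of 14 alternative fits. The ubiquitin receptor ADRM1 and the deubiquitinases USP14 and UCHL5 had log2 fold changes of 0.093, −0.075 and −0.037 and did not pass.

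NFE2L1, the gene for NRF1, was at 169, 167.7 and 174 CPM in parental and 164.4, 166.5 and 167.3 CPM in resistant libraries. All resistant values lay just below the parental ones, yet the log2 fold change of −0.036 (95% interval from the same edgeR fit −0.10 to 0.034, FDR 0.459) did not pass. Of the 14 genes on the list of regulators of proteasome transcription, 1 (7.14%) was higher, 6 (42.9%) were lower and 7 did not pass, against 17.1% and 18.4% of all genes tested. The lower genes were MAFF (log2 fold change −0.65, FDR 1.61e-06 in edgeR) and MAFG (−0.23), small partners of NRF1 and NRF2 on DNA, NFYA (−0.15) and NFYB (−0.24), subunits of the CCAAT-binding factor NF-Y, SYVN1 (−0.26), the ubiquitin ligase that keeps NRF1 low, and DDI2 (−0.098, FDR 0.0461), the protease that activates it. MAFF was at 17.8, 17.2 and 17.7 CPM in parental and 12.5, 10.9 and 10.2 CPM in resistant libraries. NGLY1, which removes sugars from NRF1, was higher, with a log2 fold change of 0.21 (FDR 0.0144 in edgeR). Leaving out 1 library lost NGLY1 (FDR 0.104 without parental library 2, 0.053 without parental library 3), NFYA (0.0535 without parental library 2, 0.0594 without resistant library 1) and DDI2 (0.0557 to 0.23 without parental library 1 or 3 or resistant library 1 or 3). DDI2 passed in only 5 of 14 alternative fits, and its FDR was 0.11 with DESeq2, 0.0525 with upper quartile scaling, 0.0912 with no filter and 0.0793 with protein-coding genes only. VCP and NFE2L2 had log2 fold changes of 0.035 and −0.018 and did not pass.

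Genes linked to immunoproteasome induction and antigen processing were split. Of 10 genes, 9 were tested, 4 (44.4%) were higher, 1 (11.1%) was lower and 4 did not pass, beside 17.1% and 18.4% of all genes tested. The transcription factor STAT2 had a log2 fold change of 0.33 (FDR 2.55e-04 in edgeR), the peptide editor TAPBP 0.21 and the peptidase ERAP1 0.37. TAP2, a peptide transporter gene near PSMB8 and PSMB9, fell by 0.38 on the log2 scale, from 26.9, 25.4 and 25.2 CPM in parental to 19.8, 20.3 and 19.5 CPM in resistant libraries. Its partner TAP1 had a log2 fold change of −0.11 (FDR 0.18 in edgeR). NLRC5 did not reach the count filter, and IRF1, at 0.893 to 1.79 CPM over the 6 libraries, had a log2 fold change of 0.25 (FDR 0.589 in edgeR).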

How the data were processed

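RNA-Seq counts of 6 libraries, 3 of parental and 3 of resistant 22Rv1 cells, were assigned to groups by the sample titles. The labels name mouse as organism, whereas line and gene identifiers are human. The authors processed reads with fastp, mapped them to hg38 with HISAT2 2.0.5 and deposited raw counts per gene from featureCounts 1.5.0-p3, with gene lengths as another quantity. Annotation release, strand and overlap settings are not given in the sources used here. Sample columns left unused numbered 0.

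edgeR 4.0.16 (R 4.3.3) was run on all genes with filterByExpr, TMM, the quasi-likelihood test and Benjamini-Hochberg adjustment over 17142 genes. CPM and FPKM used TMM-scaled library sizes, and FPKM the deposited gene lengths. The standard error is the log2 fold change over the square root of F. Replicate libraries differed by more than sampling noise (chi-square per degree of freedom 1.76 to 2.38 within groups). The scripts were tested on simulated data.

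Members and lists were chosen with earlier results of these data known. Named genes were the extremes of each role group, PSMB5 to PSMB10, POMP, NFE2L1, untested members, and list genes past both thresholds. All others were named after their values were seen. Alternatives were limma-voom (limma 3.58.1), DESeq2 1.42.0, library size alone, upper quartile, all genes with a count, a minimum of 10 counts per library, protein-coding genes only, the replicate block and each library left out, 14 fits in all. No human sequence was used, so a planned promoter motif search was not run. Some genes of the marker and pathway lists are counted in their lists but not reported here by name.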

Additional observations from a re-analysis of the deposited data

How the results depend on the processing

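With the replicate number as a block, 10 members were higher and 4 lower, PSMG2 being the one lost (FDR 0.057 in edgeR), and DDI2 was lost among the regulators (0.0582). Correlations of deviations from the group means between same-numbered libraries were −0.0196 to −0.00806, so no shared effect of the number was seen. Whether same-numbered libraries were handled as pairs cannot be told from these correlations. The block moved no count of calls by over 1.5 times. No member passed an absolute log2 fold change of 1 in any fit. Of the 15 members that passed, 7 did so in all 14 alternative fits (PSMB4, PSMB5, PSMB9, PSMD1, PSMD5, PSME1 and PSME2). DESeq2 gave 6 higher and 3 lower members, and fits leaving out 1 library gave 7 to 10 higher and 2 to 5 lower, with 3 lower without parental library 1 and 2 without resistant library 2. The share of all genes called was not taken in these fits, and the cause of these changes was not tested. The median log2 fold change of the members stayed between 0.0102 (leaving out 1 library) and 0.0421 (protein-coding genes only). Among the proteasome partners outside the naming rule, the count higher was 1 with DESeq2, library size alone and no filter, and the count lower was 3 with library size alone. Leaving out 1 library, these counts ran from 1 to 3 and from 1 to 2. Among the regulators, 2 were higher with upper quartile scaling, at least 10 counts in every library and protein-coding genes only, and 0 to 2 when 1 library was left out. Among the ubiquitin genes, 1 was lower with no filter and with protein-coding genes only, and 1 to 2 when 1 library was left out. Direction turned for PSMC3 with protein-coding genes only (0.0012). When 1 library was left out, log2 fold changes ran from −0.0456 to 0.0240 for PSMC3, from −0.0184 to 0.214 for PSMA2 and from −0.0038 to 0.116 for PSMD9, none of which passed in any fit. Counts of 27 to 84 per library limit what can be said of PSMA6, PSMB8, PSMB9 and PSMB10.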

Other observations

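Ubiquitin itself was measured through the genes that encode it. Of the 11 genes for ubiquitin, its activating enzymes and shuttle factors, 3 (27.3%) were higher, 2 (18.2%) were lower and 6 did not pass, beside 17.1% and 18.4% of all genes tested. RPS27A, which encodes ubiquitin fused to a ribosomal protein, was higher by 0.19 on the log2 scale (FDR 1.73e-07 in edgeR). UBB, a polyubiquitin gene, had 0.065 (FDR 0.109) and did not pass. UBA1, the main activating enzyme, had a log2 fold change of −0.090 (FDR 0.00524) and the shuttle factor RAD23B −0.085 (FDR 0.0264). RAD23B was lost without parental library 1 or 3 or resistant library 2 or 3 (FDR 0.0714 to 0.0929). It was also lost with no filter (FDR 0.0642) and with protein-coding genes only (0.0557). The summed FPKM of the list was 934.9 ± 5.93 (SD, n = 3) in parental and 976 ± 1.10 (SD, n = 3) in resistant libraries.

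The table lists 32 pseudogenes named after 12 of the members. Their counts summed to between 45 and 71 per library, and 4 of them had more than 3 counts in any library. Those named after PSMC1 held 231 counts over the 6 libraries and those named after PSMA6 held 42, next to 288 counts on PSMA6 itself. Of the 50 members, 30 overlap another gene model on either strand and 20 overlap none.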
